A study of Mus musculus with 133 samples.

Results

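Hepatocytes of 60-week-old female C57BL/6 mice (OF), isolated 52 h after partial hepatectomy (PH), were compared with hepatocytes of OF mice isolated 52 h after sham surgery. PH removed the left and median lobes, and sham surgery was an abdominal incision that was sutured closed under inhalation anaesthesia. The mice were wild type. The 3 PH libraries and the 3 unmarked sham libraries were chosen by their titles and are 6 of the 133 libraries of the series, and all 11048 genes tested were examined. Another sham library at 52 h, numbered 2X, was left out because 3 others remained. For context, levels were also read in OF mice without surgery and at 4 days after PH or sham surgery, and the response was compared with those of 60-week-old males (OM), 11-14-week-old females (YF) and 100-week-old females (VOF) at 52 h, with 3 libraries in each group. The labels number the libraries but do not say that each came from its own mouse, so p-values measure the spread between these libraries.

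Hepatocytes of the adult liver rarely divide. After loss of liver mass those of the remnant enter the cell cycle, copy their DNA under the control of E2F factors and then, under FOXM1 and related factors, pass through mitosis while they go on with bile acid synthesis, drug metabolism and the secretion of plasma proteins. Sham-operated animals undergo anaesthesia and incision with the liver left whole, so the comparison sets removal of liver tissue beside surgery alone at one time of collection.

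The 6 libraries held 1098136 to 1983436 transcripts each. PH 1, PH 2 and sham 1 carried the label mix 14, as did sham 2X, whereas PH 3 was in mix 19, sham 2 in mix 22 and sham 3 in mix 21. What a mix is was not stated. The 12 hepatocyte markers together reached 17820 to 27860 CPM (counts scaled to an equal library size) after PH and 28070 to 39150 CPM after sham surgery, and 0 of the 12 was called. Macrophage markers summed to 1077 to 1265 CPM after PH and 915 to 1099 CPM after sham surgery, endothelial markers to 743 to 1060 and 807 to 927 CPM, and stellate cell markers to 477 to 511 and 341 to 419 CPM. Cholangiocyte markers, of which only 3 of 8 were in the table (Sox9 and Spp1 among them), summed to 46.8 to 95.7 and 24.4 to 28.6 CPM. The 5 erythroid markers summed to 13.4 to 74.1 and 10.3 to 14.6 CPM, and none of the T and NK cell or neutrophil markers was in the table. Bulk libraries do not tell fewer cells of a type from less RNA per cell.

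At 52 h, 593 of the 11048 genes were higher and 405 lower after PH than after sham surgery, when a 2-fold difference with an adjusted p under 0.1 was required (5.37% and 3.67% of the genes, 9.03% together). Among the higher genes 189 differed by at least 4-fold and 91 by at least 8-fold, against 74 and 17 of the lower genes. The PH and sham libraries did not overlap in 539 of the higher and 373 of the lower genes, where 17.4% and 16.6% of all tested genes stood apart in those directions. In the group with the higher mean, a mean of at least 100 CPM was reached by 108 of the lower genes and 39 of the higher ones. With libraries of mix 14 alone, 269 genes were higher and 245 lower.

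**Figure D1:**
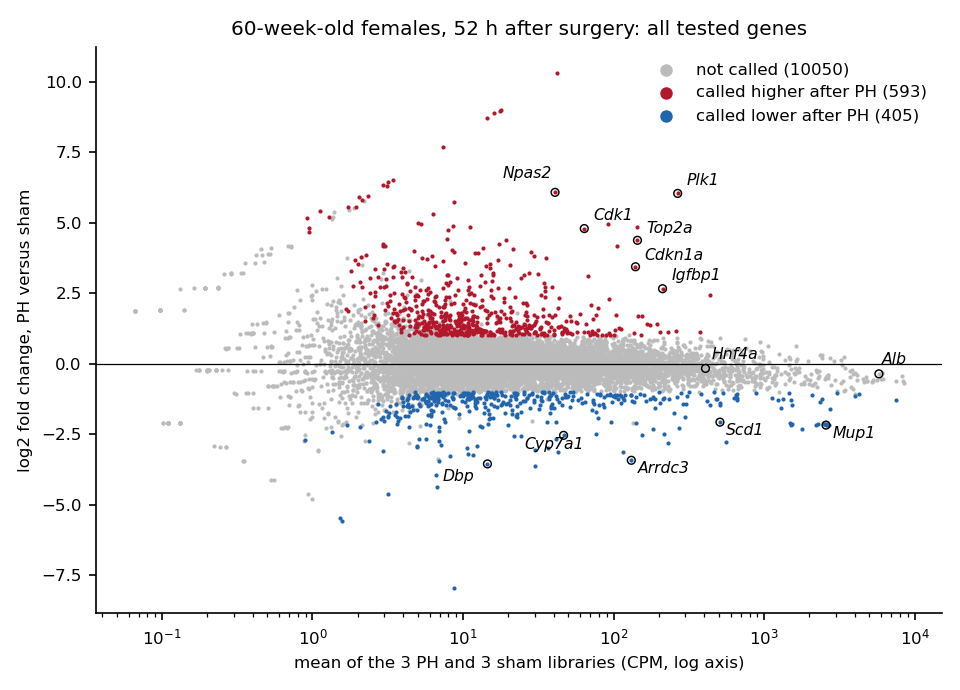
Log2 fold change of PH over sham (vertical axis) against mean level in CPM on a log axis (horizontal axis) for the 11048 tested genes in OF hepatocytes at 52 h. Each point is a gene. The 593 genes called higher reach larger differences than the 405 called lower, and many of the latter lie at high mean levels.

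Among called genes of at least 20 CPM whose PH and sham libraries did not overlap, most of the 8 that rose most belong to the cell division machinery. Kinetochore protein Cenph, at 30.9, 45.4 and 30.7 CPM in PH 1, 2 and 3, centromere protector Sgo2a, the cytokinesis kinesin Kif20a and the collagen cross-linking enzyme Loxl4 had no count in the 3 sham libraries compared. Measured against a floor of 3 counts over the sham group, they were at least 50-fold (Cenph), 45.7-fold (Sgo2a), 40-fold (Kif20a) and 47.8-fold (Loxl4) higher. The libraries of mix 14 included 2X, in which Kif20a and Loxl4 had 5.78 CPM each, and within mix 14 their log2 fold changes were 4.06 and 4.23. The mitotic kinase gene Plk1 stood at 200, 878 and 499 CPM after PH and at 0, 23.2 and 0 CPM after sham surgery (log2 fold change 6.03, SE 0.83, adjusted p = 9.01e-06). Prc1, which bundles microtubules of the spindle midzone, read 141, 358 and 336 CPM against 13.4, 13.9 and 0 CPM (4.84, SE 0.59). Ncaph, a condensin subunit, had 3 counts in the sham group, and the ratio of PH to sham was 31.1 with a counting interval of 10.4 to 153. Separation of the groups was part of the rule that chose these genes. Npas2, the remaining gene of the 8, encodes a clock factor and is described with the clock genes.

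The called genes of the cell cycle lists moved in one direction with a single exception. Of 22 tested genes of G1/S transition and replication licensing, 17 rose and 1 fell (median log2 fold change 2.12, against 0.02 over all tested genes). Of 27 genes of DNA synthesis 19 rose (median 1.69), of 53 genes of G2/M and mitosis 30 rose (median 2.86) and of 23 chromatin and spindle genes 13 rose (median 1.41). In these 3 lists 0 genes were called lower. The cyclin-dependent kinase gene Cdk1 was at 50.7, 205 and 115 CPM after PH and at 4.87, 5.29 and 2.39 CPM after sham surgery (4.79, SE 0.48, adjusted p = 8.53e-08). Topoisomerase gene Top2a was at 101, 450 and 275 CPM against 13.4, 17.2 and 7.96 CPM (4.37, SE 0.44). The proliferation marker Mki67 read 19.4, 103 and 48.6 CPM against 3.65, 6.62 and 7.96 CPM (3.17, SE 0.51). In all of them each PH library lay above each sham library, with PH 1 lowest and PH 2 highest of the 3.

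In the 17 risen genes of G1/S and licensing PH 1 was the lowest PH library in 10 and PH 2 the highest in 15. The helicase subunit gene Mcm5 was at 17, 33.6 and 26.1 CPM after PH and at 1.22, 1.32 and 1.59 CPM after sham surgery (4.11, SE 0.59), and Mcm2 and Mcm6 rose by 4.03 and 3.40 on the log2 scale. Cyclin D1 gene Ccnd1, which acts at the entry into the cycle, was at 165, 164 and 140 CPM against 48.1, 101 and 51.7 CPM (1.22, SE 0.29, adjusted p = 0.00413), so that its PH libraries were close together. The single gene that fell was Mcm10, which takes part in starting replication and was looked up after its values were seen. It stood at 5.55, 7.56 and 8.69 CPM after PH and at 20.7, 13.9 and 27.8 CPM after sham surgery (-1.53, SE 0.37). Foxm1, the factor named above, was scarce at 1.59, 19.3 and 9.85 CPM against 0.609, 0 and 0 CPM, a ratio of 35.7 on 1 sham count with a counting interval of 6.08 to 1440, and it was not called in mix 14 alone (adjusted p = 0.231).

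Of the 30 G2/M and mitosis genes that rose, PH 1 was the lowest PH library in 30 and PH 2 the highest in 28. Over all 79 genes that rose in the 4 lists, PH 1 was lowest in 61 (77.2%) and PH 2 highest in 69 (87.3%), whereas over all tested genes PH 1 was lowest in 33.7% and PH 2 highest in 35%. Over the 593 genes called higher PH 1 was lowest in 38.1% and PH 2 highest in 47.2%. Both libraries were in mix 14, with erythroid marker sums of 74.1 and 13.4 CPM, and the part of cell composition in this order was not tested. In libraries of mix 14 alone, with 2 against 2, 9 of the G1/S, 11 of the DNA synthesis, 14 of the G2/M and 9 of the chromatin and spindle genes were called higher.

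**Figure D2:**
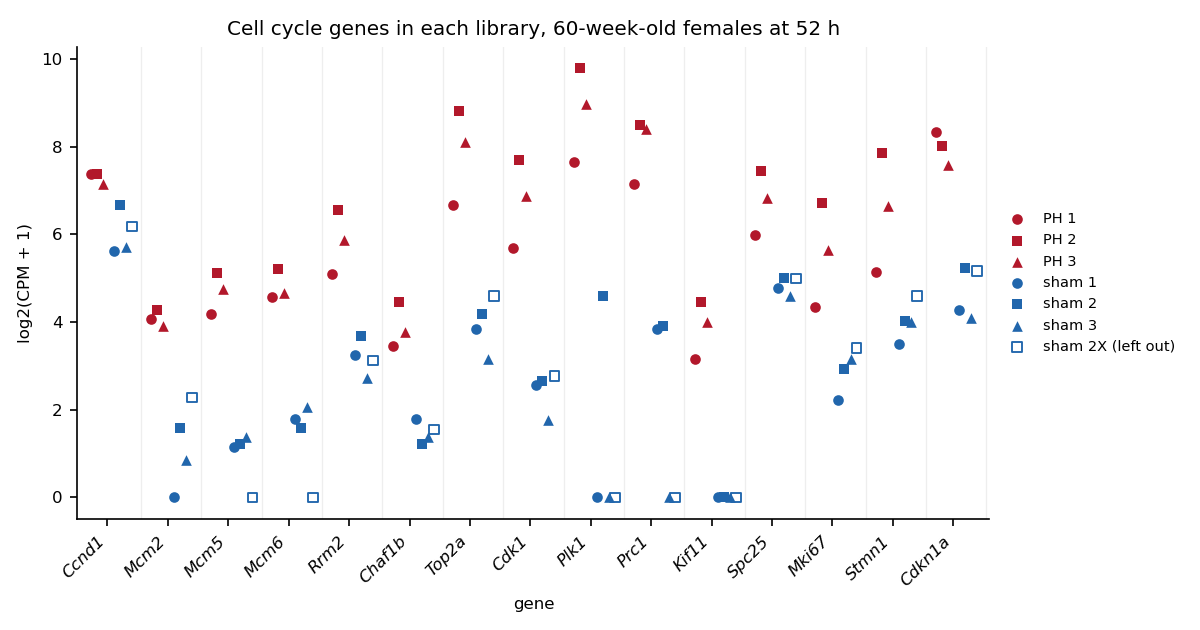
Level of cell cycle genes on a log2(CPM + 1) scale (vertical axis) in each library of OF hepatocytes at 52 h, by gene (horizontal axis). Filled symbols are PH 1 to 3 and sham 1 to 3, and open squares are the sham library 2X, which was left out of the test. PH 1 is the lowest and PH 2 the highest PH library for most mitotic genes, and Cdk1 spans 50.7 to 205 CPM after PH.

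The promoters of these genes were read for short motifs, from RefSeq windows of 250 bases before to 50 after each transcription start on GRCm38.p6. The letters TTTGAA, the core of the cell cycle homology region bound by the complex that represses mitotic genes in resting cells, were sought with the CCAAT box and with the E2F letters TTTCCCGC and TTTGGCGC, each on both strands. Whether matches to different motifs share bases in a promoter was not checked. Of the 30 risen G2/M genes, 25 matched to 27 promoters, and 20 of these (74.1%) held TTTGAA and 22 (81.5%) CCAAT, against 17.9% and 37.4% of all 32851 promoters. TTTCCCGC or TTTGGCGC was in 0 of the 27. Of the 17 risen G1/S genes, 14 matched to 16 promoters, of which 8 (50%) held either E2F motif, against 1.6% of all promoters and 2.9% of those of tested genes. TTTGAA was in 37.5% of these 16 promoters and CCAAT in 75%, against 12.6% and 37.9% of those of tested genes. Of the 19 risen DNA synthesis genes, 18 matched to 24 promoters, of which 12.5% held an E2F motif, 16.7% TTTGAA and 62.5% CCAAT. These are matches of letters and not measured sites. The 6 windows of 30 bases around a match shown are for 3 mitotic genes with the cell cycle homology region (Cdk1, Prc1 and Kif11) and 3 licensing genes with an E2F motif (Mcm5, Mcm6 and Mcm7). Each is read 5′ to 3′ on the strand of its gene, with the match in capitals, and the Kif11, Mcm5 and Mcm7 matches are the reverse complement of the letters searched.
Cdk1, chr10:69352966-69352995, minus strand: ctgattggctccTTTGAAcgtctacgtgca
Prc1, chr7:80294434-80294463, plus strand: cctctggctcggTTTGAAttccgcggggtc
Kif11, chr19:37376351-37376380, plus strand: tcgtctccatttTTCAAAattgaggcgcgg
Mcm5, chr8:75109349-75109378, plus strand: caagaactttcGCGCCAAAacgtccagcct
Mcm6, chr1:128359797-128359826, minus strand: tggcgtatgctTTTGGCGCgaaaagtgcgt
Mcm7, chr5:138172030-138172059, minus strand: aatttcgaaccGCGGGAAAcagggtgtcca
Kif11, the motor that keeps spindle poles apart, was at 7.93, 21 and 15.1 CPM after PH and had no count in the 3 sham libraries, which made it at least 19.2-fold higher. Mcm7 stood at 95.9, 170 and 85.7 CPM against 32.9, 41 and 31 CPM (1.72, SE 0.25).

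Lists of checkpoint and growth genes held fewer calls. Of 20 DNA repair genes 3 rose and 0 fell (median 0.56), among them the checkpoint kinase gene Chek1, which was at 3.96, 4.2 and 4.05 CPM after PH with no sham count (at least 5.94-fold higher) and was not called in mix 14 alone (adjusted p = 0.154). The others were Fancb and Rad18. Of 17 genes of cell cycle inhibitors and p53 targets 2 rose, Cdkn1a and Gadd45g (median 0.22), and Gadd45g lost its call without PH 1, PH 3, sham 1 or sham 2. The inhibitor gene Cdkn1a was at 322, 255 and 191 CPM after PH and at 18.3, 36.4 and 15.9 CPM after sham surgery (3.43, SE 0.46, adjusted p = 6.89e-06). PH 1, the library lowest in mitotic genes, was the highest in Cdkn1a. Of 27 genes of ribosome biogenesis and growth 4 rose, Rrp12, Nop58, Nop56 and Srm (median 0.47), with the nucleolar protein gene Nop58 at 46, 26 and 26.6 CPM against 12.2, 9.93 and 14.3 CPM (1.49, SE 0.29). Without sham 2 only 2 of this list were called.

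**Figure D3:**
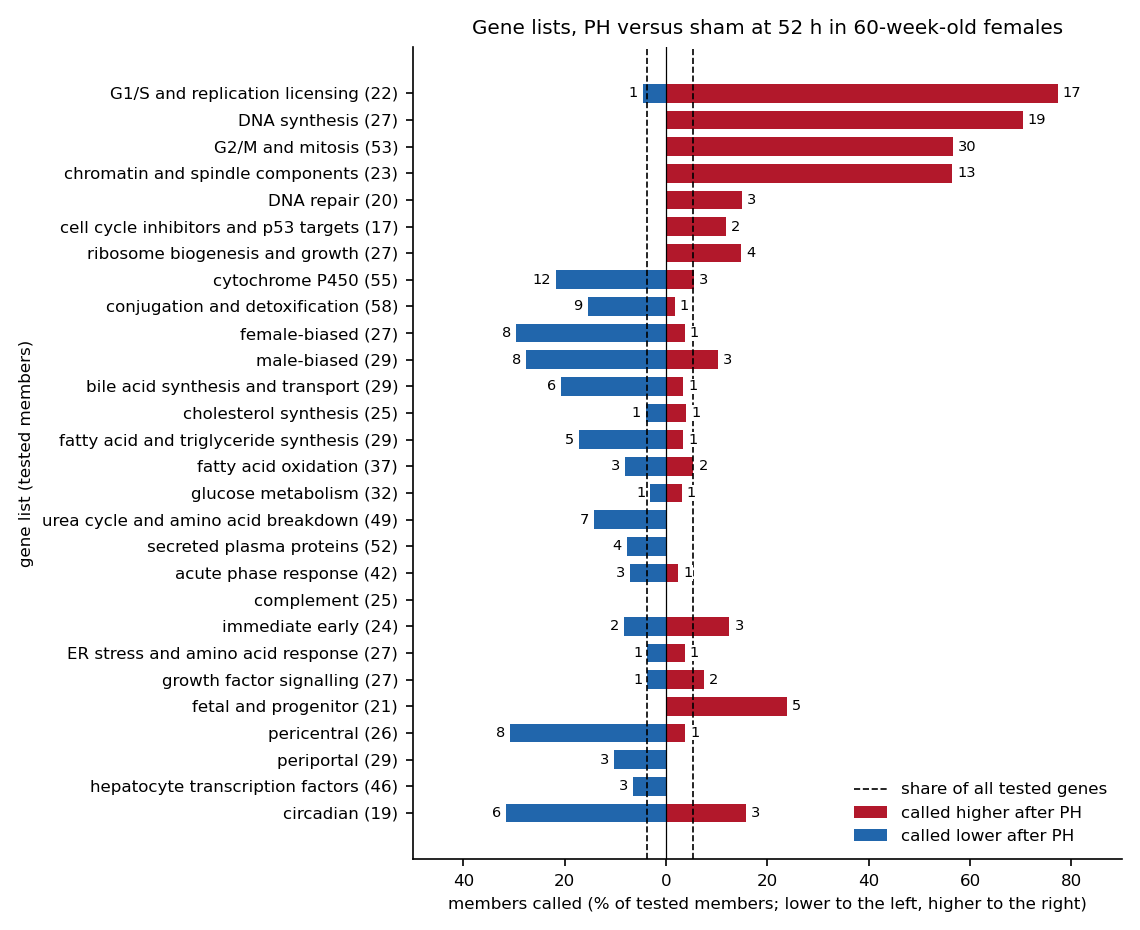
Share of tested members called lower (bars to the left) and higher (bars to the right) after PH than after sham surgery, in percent, for 28 gene lists (vertical axis, tested members in brackets). Numbers beside the bars are genes called, and dashed lines mark the shares over all tested genes, 3.67% and 5.37%. The 4 cell cycle lists carry the longest bars to the right.

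Clock genes moved in opposite directions. Of 19 tested members 3 rose and 6 fell (median -0.48). Npas2, a partner of the clock activator, was at 73.7, 71.4 and 96.7 CPM after PH and at 0, 3.31 and 0 CPM after sham surgery (6.07, SE 0.70, adjusted p = 1.05e-06). The repressor genes Cry1, named after its values were seen, and Nfil3 rose as well, Nfil3 from 94.4, 94.6 and 83.5 CPM to 215, 252 and 259 CPM (1.41, SE 0.24). Dbp, an activator in the output of the clock, was at 2.38, 0.84 and 2.9 CPM after PH and at 23.1, 16.5 and 41.4 CPM after sham surgery (-3.55, SE 1.00, adjusted p = 0.0144). Nr1d1, the repressor REV-ERB alpha, was at 22.6, 66.3 and 73.5 CPM against 183, 243 and 255 CPM (-2.10, SE 0.36), and Tef, related to Dbp, fell by 1.94 on the log2 scale. The PH and sham libraries did not overlap in any of these genes, which was a condition of choosing Npas2 and Dbp. Surgeries were done in the morning hours, per the study's methods, and the hour at which each mouse was killed was not given.

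Among called genes of at least 20 CPM whose groups did not overlap, the largest falls included Dbp, Arrdc3, Cyp2g1, Upp2, Thrsp, Gas1 and Gm13775. The arrestin-domain gene Arrdc3 was at 20.2, 19.3 and 27.2 CPM after PH and at 280, 196 and 244 CPM after sham surgery (-3.42, SE 0.49, adjusted p = 1.48e-05). Upp2, a uridine phosphorylase, was at 17, 22.7 and 31.9 CPM against 214, 214 and 191 CPM (-3.13, SE 0.46). In both genes, which were chosen for groups that did not overlap, all PH libraries lay far below the lowest sham library. Thrsp, a regulator of lipogenesis, fell by 3.12, and Gas1, named for its rise in arrested cells, by 3.07 on the log2 scale. The predicted gene Gm13775 may share reads with near-identical copies, so its value (-2.97, SE 0.27) is uncertain.

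Of the lists of liver functions, bile acid synthesis and transport fell in 6 of 29 tested members and rose in 1 (median -0.48). The rise, of the carrier gene Slco1a1, was lost without PH 2, sham 1 or sham 2. Cyp7a1, the rate-limiting enzyme of bile acid synthesis, was at 5.55, 4.2 and 31.3 CPM after PH and at 103, 86 and 49.3 CPM after sham surgery (-2.54, SE 0.60, adjusted p = 0.00353). Cyp8b1, which directs synthesis to cholic acid, was at 56.7, 82.3 and 143 CPM against 327, 675 and 359 CPM (-2.28, SE 0.42). In both genes PH 3 was the highest PH library and still lay below every sham library. Slc27a5, which activates bile acids for conjugation, was at 216, 280 and 324 CPM against 737, 766 and 748 CPM (-1.46, SE 0.13), and the sterol exporter subunit gene Abcg8 fell by 2.05 on the log2 scale.

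Cytochrome P450 genes fell in 12 (21.8%) and rose in 3 (5.5%) of 55 tested members (median -0.32), where 3.7% of all tested genes fell and 5.4% rose. The rises were Cyp2c55, Cyp2d9 and Cyp4a31. Cyp2c29, an abundant drug and fatty acid oxidase, was at 845, 1236 and 1955 CPM after PH and at 4262, 4192 and 3831 CPM after sham surgery (-1.61, SE 0.22, adjusted p = 9.68e-06). Cyp2e1, which oxidizes ethanol, was at 654, 632 and 879 CPM against 1882, 1544 and 1884 CPM (-1.29, SE 0.21). Genes of the Cyp2c cluster resemble each other closely and reads may be split among them, so the values of Cyp2c29 and of Cyp2c70 (-1.28) are uncertain. Cyp1a2 was at 216, 332 and 741 CPM against 950, 895 and 847 CPM (-1.06), and its call was lost without PH 1 (-0.75, adjusted p = 0.103) and without PH 2 (-0.92). Of 58 genes of conjugation and detoxification 9 fell and 1 rose (median -0.38). The sulfotransferase gene Sult2a8, at 37.7, 42.8 and 55.6 CPM after PH and 233, 322 and 234 CPM after sham surgery, fell by 2.54 on the log2 scale (SE 0.28), and the carboxylesterase gene Ces3b by 1.89. Without PH 3 the number of falls in this list was 14, and its rise, of Sult1e1, was lost without any 1 library but PH 3.

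Genes with a known sex bias in liver fell on both sides. Of 27 female-biased genes 8 fell and 1 rose (median -0.57), and of 29 male-biased genes 8 fell and 3 rose (median -0.47). A1bg, female-biased in mouse liver, was at 40.4, 20.2 and 107 CPM after PH and at 168, 416 and 624 CPM after sham surgery (-2.83, SE 0.61). The male-biased rises, of Cyp2d9, Slco1a1 and Susd4, numbered 0 without PH 2 or sham 1 and 1 without sham 2, and the female-biased rise was that of Sult1e1. The fallen male-biased genes were 7 major urinary protein genes and Selenbp2. Mup1, the most studied of these carriers of urinary pheromones, was at 951, 958 and 890 CPM against 3144, 4631 and 4894 CPM (-2.18, SE 0.29). Mup genes are near-identical copies, so the 7 cannot be counted as separate observations and the value of each is uncertain.

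Lipogenic genes fell in 5 and rose in 1 of 29 tested members (median -0.39). Scd1, which desaturates stearate, was at 184, 164 and 239 CPM after PH and at 658, 1159 and 651 CPM after sham surgery (-2.07, SE 0.29, adjusted p = 1.05e-05). Srebf1, the transcription factor gene of lipogenesis, was at 15.9, 16.8 and 19.7 CPM against 76.8, 59.5 and 36.6 CPM (-1.74, SE 0.34). Without sham 2 there were 3 falls in this list and without sham 3 there were 8, and the rise, of Scd2, was lost without PH 2, sham 1 or sham 3. Fatty acid oxidation showed 2 rises (5.4%) and 3 falls (8.1%) among 37 genes (median -0.01). Cholesterol synthesis showed 1 of each among 25 (4.0% each, median 0.22), Idi1 and Tm7sf2. Over all tested genes 5.4% rose and 3.7% fell. The rises in oxidation, Pdk4 and Acot1, numbered 0 without PH 2 and 1 without sham 3, and with 1 library left out cholesterol synthesis had 1 to 2 rises and 0 to 2 falls. Ppara, the nuclear receptor gene of fasting metabolism, was among the falls at 26.6, 29.4 and 31.9 CPM against 71.9, 62.9 and 62.8 CPM (-1.18, SE 0.25). In glucose metabolism 1 of 32 genes rose (3.1%, median -0.12). It was Igfbp1, a secreted binding protein of insulin-like growth factors, which stood at 474, 389 and 235 CPM after PH and at 78, 72.1 and 21.5 CPM after sham surgery (2.66, SE 0.45, adjusted p = 0.000101).

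Of 49 genes of the urea cycle and amino acid breakdown 7 fell and 0 rose (median -0.52), and 4 fell without PH 1. The groups did not overlap, with PH lower, in 31 of the 49, against 16.6% of all genes, and without the 2-fold minimum 24 were lower at an adjusted p under 0.05. At that threshold 865 of all 11048 tested genes were lower and 881 higher. The urea cycle gene Otc was at 547, 916 and 983 CPM after PH and at 1849, 2573 and 2363 CPM after sham surgery (-1.47, SE 0.18, adjusted p = 3.64e-06), and Haao and Hpd, of tryptophan and tyrosine breakdown, fell by 1.24 and 1.21 on the log2 scale. Of 52 secreted plasma proteins 4 fell (median -0.39), while groups stood apart with PH lower in 23 and with PH higher in 2. At an adjusted p under 0.05 without the 2-fold minimum, 17 of the 52 were lower and 3 higher. Apoe was at 3420, 5586 and 4181 CPM against 7607, 13110 and 11390 CPM (-1.28, SE 0.28), but in mix 14 alone it was not called (-1.03, adjusted p = 0.176), whereas Apoc1 (-1.25) was. Albumin gene Alb, at 3944, 5381 and 5885 CPM against 5504, 8442 and 5595 CPM, overlapped between the groups (-0.36, adjusted p = 0.271).

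In the acute phase list 3 of 42 genes fell (7.1%) and 1, Slpi, rose (2.4%), against 3.7% and 5.4% of all tested genes (list median -0.21). The rise was lost without any 1 library but PH 3. Of 25 complement genes 0 was called (median -0.44). Orm3, an orosomucoid gene, was at 134, 186 and 113 CPM after PH and at 634, 694 and 1605 CPM after sham surgery (-2.76, SE 0.44, adjusted p = 6.24e-05), and Hamp2, of the hepcidin family, fell by 2.48 on the log2 scale. Serum amyloid A genes rested on a single library. Saa1 was at 2749, 3173 and 2310 CPM against 1934, 3647 and 9598 CPM (-0.88, adjusted p = 0.146), and Saa2 at 1492, 1543 and 1291 CPM against 922, 2325 and 7030 CPM (-1.25, adjusted p = 0.0818). Sham 3 alone was far above the PH libraries in both. Without sham 3 the difference in Saa2 was -0.17 (adjusted p = 0.866), its call was also lost without any 1 of the PH libraries, and in mix 14 alone Saa1 and Saa2 were higher after PH by 0.45 and 0.48 on the log2 scale.

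Of 21 fetal and progenitor genes 5 rose and 0 fell (median 0.60). The surface protein gene Ly6d was at 59.9, 68.9 and 37.6 CPM after PH and at 4.26, 3.31 and 3.98 CPM after sham surgery (3.81, SE 0.47, adjusted p = 2.79e-06). Sox9, a factor of bile duct and progenitor cells, was at 38.9, 85.7 and 55.6 CPM against 15.8, 21.2 and 18.3 CPM (1.66, SE 0.39). Anxa2 and S100a11, which encode calcium-dependent binding proteins, rose by 1.66 and 1.52, and Prom1 by 1.94 on the log2 scale, though Prom1 was not called in mix 14 alone (adjusted p = 0.119). Sox9 was also 1 of the 3 cholangiocyte markers in the table, and the part of bile duct cells in these rises was not tested. Afp, the classical fetal gene, was not in the table.

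Lists of zonated genes held more falls than rises. Of 26 pericentral genes 8 fell and 1 rose (median -0.50), and of 29 periportal genes 3 fell (median -0.47). The pericentral falls numbered 3 without PH 1, 4 without PH 2 and 5 without sham 2, the periportal falls 1 without PH 1, and the pericentral rise, of Notum, was lost without PH 1, PH 3, sham 2 or sham 3. Pigr, the periportal receptor that carries IgA into bile, was at 329, 390 and 430 CPM after PH and at 930, 836 and 1026 CPM after sham surgery (-1.28, SE 0.16). Glutamine synthetase gene Glul, of the innermost pericentral cells, was at 75.7, 88.2 and 110 CPM against 215, 167 and 135 CPM and stayed under the 2-fold minimum (-0.92, adjusted p = 0.0614). Hepatocyte transcription factors fell in 3 of 46 members (5 without PH 1), among them Cebpa at 61.4, 52.9 and 70.7 CPM against 119, 132 and 158 CPM (-1.14, SE 0.22), which fell short of the 2-fold minimum in mix 14 alone (-0.90). Hnf4a was not called (-0.17). In the growth factor list 2 of 27 genes rose (7.4%), Igfbp1 and Hgf, and 1 fell (3.7%). Hgf lost its call without PH 1, sham 1 or sham 3. The growth hormone receptor gene Ghr was at 133, 168 and 186 CPM against 341, 401 and 354 CPM (-1.17, SE 0.20). Of 24 immediate early genes 3 rose (12.5%) and 2 fell (8.3%). Of 27 genes of ER stress and amino acid response 1 rose and 1 fell (3.7% each), near or below the 5.4% and 3.7% of all tested genes. The immediate early rises numbered 1 without PH 1 and 5 without PH 3 and the falls 0 without sham 2, and the ER stress rise, of Asns, rested on counts in PH 1 alone.

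Among markers of other cell types, named after their values were seen, the macrophage receptor gene Marco was at 57.5, 31.9 and 59.1 CPM after PH and at 5.48, 8.6 and 1.59 CPM after sham surgery (3.21, SE 0.42, adjusted p = 5.67e-06). Cd74, of antigen presentation, moved the other way, at 7.93, 5.04 and 12.7 CPM against 28, 27.8 and 32.6 CPM (-1.73, SE 0.45). Timd4 rose (2.68), but not in mix 14 alone (1.39, adjusted p = 0.274). These calls were 3 of the 14 macrophage markers, whose sums overlapped between the groups.

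Levels in the 3 other groups of OF mice were read beside those at 52 h, as a description with no test. Cdk1 was at 124 ± 77.4 CPM at 52 h after PH, 63.4 ± 15.6 CPM at 4 days after PH, 5.06 ± 2.09 CPM without surgery and 4.18 ± 1.57 and 5.35 ± 2.13 CPM at 52 h and 4 days after sham surgery (SD, n = 3 each). Sham groups were at the level of unoperated mice in this gene. Several genes of metabolism and the clock had another order. Scd1 was at 2629 ± 674 CPM without surgery and at 823 ± 291 CPM at 52 h after sham surgery, against 195 ± 38.8 CPM after PH. Nfil3 was at 19 ± 11.3 CPM without surgery, 90.9 ± 6.35 CPM after sham surgery and 242 ± 23.4 CPM after PH. In these genes the sham group at 52 h lay between the other 2, and the levels of Nr1d1 (479.5 ± 39.3, 227 ± 38.5 and 54.2 ± 27.6 CPM) stood in the same order as those of Scd1. The 3 libraries without surgery were all in mix 12, which held none of the OF libraries at 52 h. Surgery and mix therefore cannot be told apart in comparisons with the unoperated group. Cyp7a1, at 13.7 ± 15.3 CPM at 52 h after PH, was at 217 ± 76.6 CPM at 4 days after PH, above the 153 ± 49.6 CPM of mice without surgery by less than the spread between libraries. Cyp2c29 was at 1345 ± 563 CPM at 52 h after PH and at 2435 ± 164 CPM at 4 days.

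**Figure D4:**
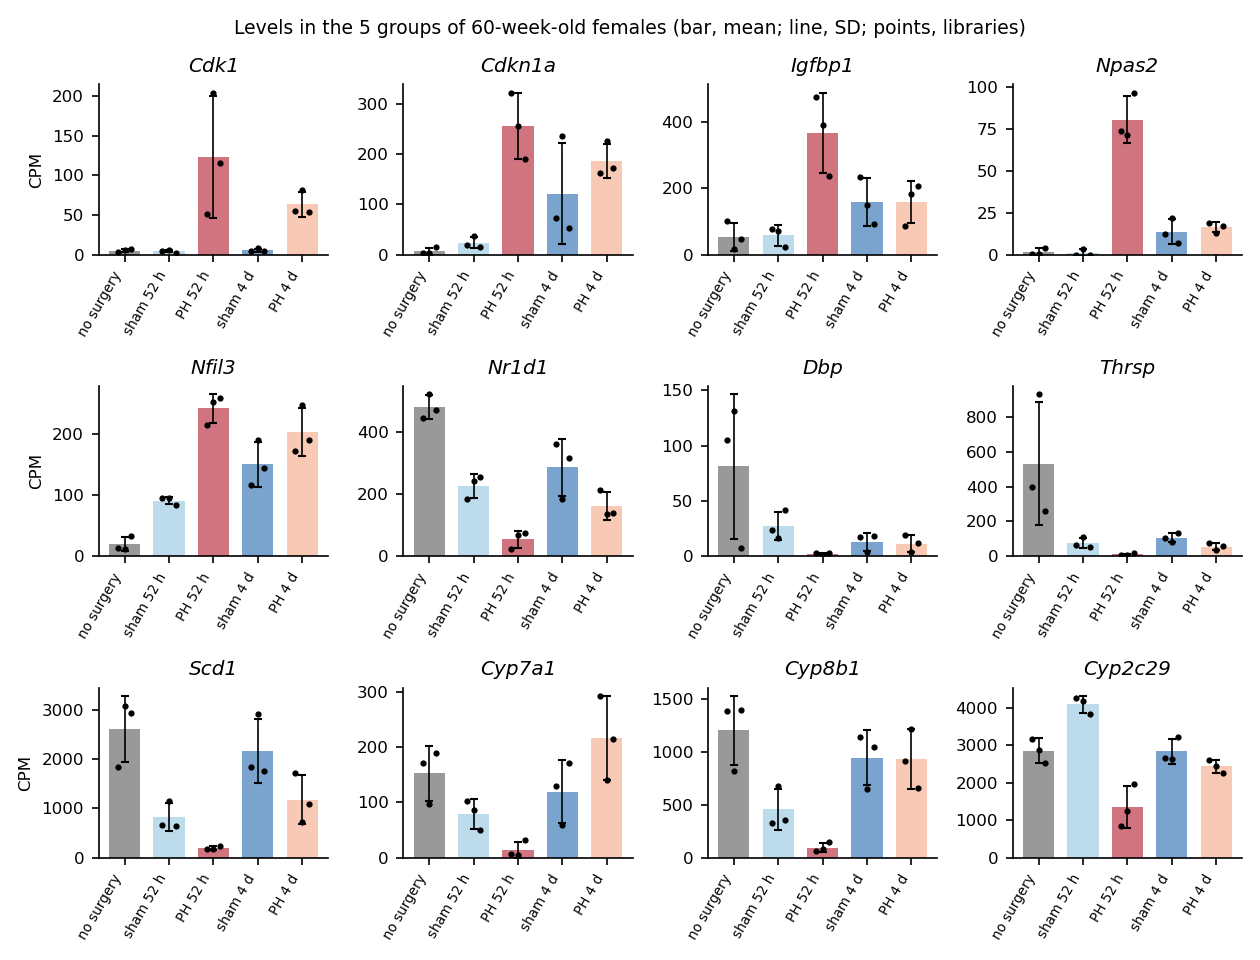
Levels of 12 genes in CPM (vertical axes, from 0) in the 5 groups of OF mice: no surgery, sham and PH at 52 h, and sham and PH at 4 days (horizontal axes). Bars are means, lines SD and points the 3 libraries. Cdk1 is high only after PH, Scd1 and Nr1d1 step down from no surgery through sham to PH at 52 h, and Nfil3 steps up. The libraries without surgery are all of mix 12.

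To ask how far the response was that of old females, it was set beside the responses of OM, YF and VOF, each PH against its own sham group at 52 h. The OM libraries were in mixes 16, 17, 20 and 23, the YF libraries in 3, 17 and 18 and the VOF libraries in 5, 11 and 13. None of these mixes held OF libraries at 52 h, so the kind of mouse and the mix cannot be told apart. The number of genes called was 1207 (10.9%) in OM, 610 (5.52%) in YF and 738 (6.68%) in VOF. The median log2 fold change of G2/M and mitosis genes was 2.86 in OF, 4.91 in OM, 2.68 in YF and 3.78 in VOF, with 30, 51, 45 and 47 of 53 called. Of the 53, 20 appear not to have been adjusted for batch. The differences between responses passed the test in few of the 53 genes with all libraries. They were lower in OF than in OM for Ccnb2 and Spc25, lower than in VOF for Spc25, and for 0 of the 53 against YF. Against OM the number was 9 without PH 2 of OF, 0 without sham 1 or sham 2 of OF or of OM, and 1 to 2 without any other library. Spc25, of the kinetochore, was at 62.2, 173 and 112 CPM in OF and at 297, 350 and 277 CPM in OM after PH, with sham levels of 23.1 to 31.1 and 22.1 to 27.6 CPM. The difference in its response from OM was -1.59 (adjusted p = 0.062), called in 5 of the 12 fits that each left out 1 library.

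**Figure D5:**
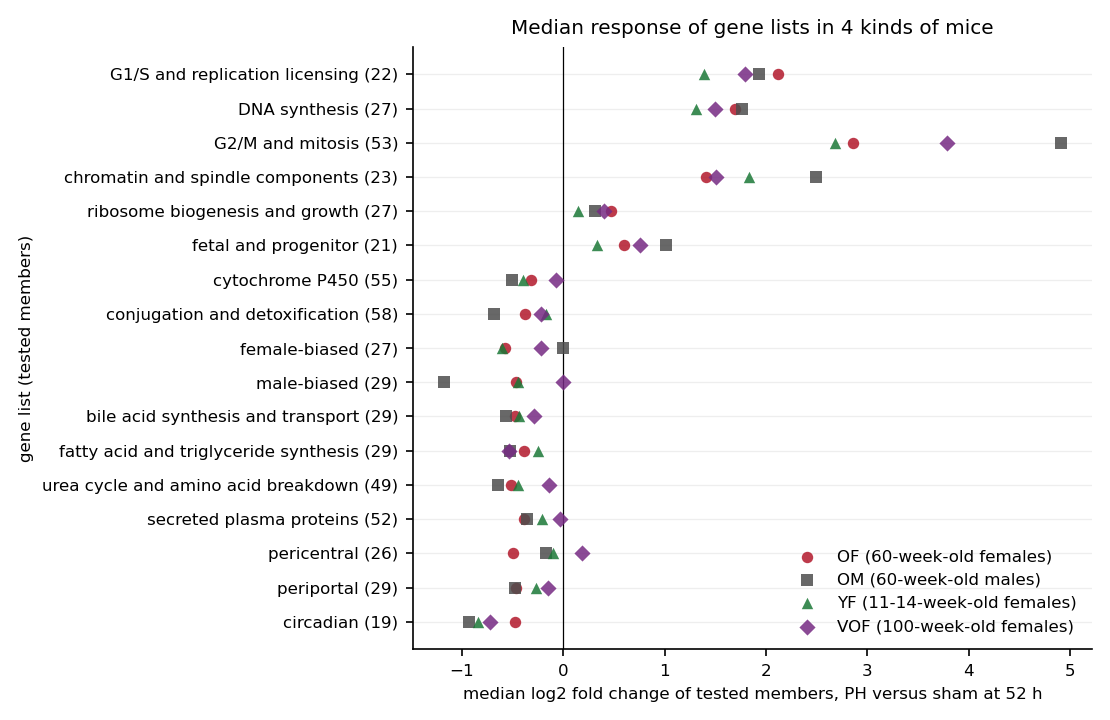
Median log2 fold change of PH over sham at 52 h (horizontal axis) of the tested members of 17 gene lists (vertical axis, tested members in brackets) in OF, OM, YF and VOF, 1 symbol each. G2/M and mitosis genes spread widest, from 2.68 in YF to 4.91 in OM, and most lists of liver functions lie near or below 0.

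The response differed from that of OM in 153 of the 11048 genes (1.38%), with 72 higher (0.652%) and 81 lower (0.733%) in OF. Male-biased and acute phase genes were among them. Cyp2d9, a male-biased P450 gene, was at 53.5, 70.5 and 59.1 CPM after PH and 20.7, 27.1 and 40.6 CPM after sham surgery in OF, and at 1096, 1283 and 960.1 CPM and 1846, 1845 and 2848 CPM in OM. The difference in response was 2.03 (adjusted p = 0.000587). The bile acid and steroid carrier gene Slco1a1 (2.77), Keg1 (1.74) and the glutathione transferase gene Gsta3 (1.25) also differed upward. In the acute phase list the difference was lower in OF for 8 of 42 genes, where 14 genes rose in OM (6.41% of all tested genes rose there). This count rested on single libraries. It was 1 without sham 3 of OF, 3 to 4 without PH 1 or PH 3 of OF or any 1 of the OM libraries but PH 2, and 12 without PH 2 of either OF or OM. Lcn2, a siderophore-binding protein, was at 2469, 4172 and 2150 CPM after PH and 1655, 1674 and 4298 CPM after sham surgery in OF, and at 5047, 3196 and 6000 CPM and 842, 1300 and 576 CPM in OM (difference -2.19, adjusted p = 0.0201). The inhibitor gene Cdkn2c differed by -2.76 (adjusted p = 0.000138), at 39 to 51.2 CPM in OF and 8.76 to 13.1 CPM in OM after sham surgery and 46 to 115 and 115 to 140 CPM after PH. The genes Spc25, Lcn2, Slco1a1, Cyp2d9, Keg1, Gsta3 and Cdkn2c were singled out after their differences were seen. Without PH 2 of OF 327 genes differed, and without sham 2 of OM 58.

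Against YF 54 genes differed (0.489%), and this number ranged from 2 without PH 1 of YF to 163 without PH 2 of OF. Cyp2c29, chosen after its value was seen, differed by -1.40 (adjusted p = 0.0545) and was called in 6 of 12 fits with 1 library left out. Against VOF 155 genes differed (1.40%), with 82 higher (0.742%) and 73 lower (0.661%) in OF, from 57 without sham 2 of OF to 252 without PH 2 of OF. Male-biased genes were lower in their response in OF than in VOF for 7 of 29 members, of which 6 were Mup genes (3 without sham 2 of OF). As near-identical copies, these 6 cannot be counted as separate observations. Mup1 in VOF was at 3478, 4678 and 2769 CPM after PH and at 5014, 3619 and 6090 CPM after sham surgery, overlapping, and the difference in response was -1.75 (adjusted p = 0.0338). Of 55 P450 genes 5 differed downward (1 without PH 1 of OF, and 3 without sham 2 or sham 3 of OF or sham 1 or sham 2 of VOF), among them Cyp2c70 (-1.36, adjusted p = 0.018) and Cyp1a2 (-1.73, adjusted p = 0.0425). Cyp1a2 in VOF was at 1328, 1563 and 1245 CPM after PH and at 573, 1060 and 969 CPM after sham surgery, the opposite order to OF. Orm3 differed by -2.79 (adjusted p = 0.0252), with 532 to 972 CPM after PH and 647 to 918 CPM after sham surgery in VOF. The calls of Mup1, Cyp2c70 and Orm3 were kept in 12 of 12 fits with 1 library left out, and that of Cyp1a2 in 10. Mup1, Cyp2c70, Cyp1a2 and Orm3 were singled out after their differences from VOF were seen. The 3 comparisons share the OF libraries and are not independent of each other.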

How the data were processed

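Transcript abundance was measured by CEL-seq2 3'UTR-seq, in which each mRNA molecule is tagged by a unique molecular identifier (UMI). The authors corrected UMI numbers for collisions among 4096 possible UMIs to give expected counts, left out 9 genes and adjusted batches with ComBat-Seq, and these expected counts were deposited for 11049 genes and 133 libraries. The batches and covariates given to ComBat-Seq were not stated, and adjustment before testing can move both folds and p-values. Reads were demultiplexed with bcl2fastq 2.20 (submitters' processing notes). In 394 genes every value equalled the conversion of a whole UMI number (tolerance 1e-05), so these appear not to have been adjusted, among them Foxm1, A1bg and Prom1. Of the 53 tested G2/M and mitosis genes 20 were among them, 4 of which were called in OF, against 393 of all 11048 tested genes. Of the 27 female-biased genes 8 were among them, 6 of which were called. GENCODE M21 symbols matched 11020 gene IDs.

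Counts were rounded to whole numbers (448 genes held values that were not whole), and the 11048 genes that reached 0.5 CPM in 1 or more of the 33 libraries were kept. CPM are counts relative to the library total. The totals were scaled by TMM. One edgeR 4.0.16 quasi-likelihood model (R 4.3.3) covered 11 groups of 3 libraries, with Benjamini-Hochberg adjustment over all 11048 genes. A called gene had a 2-fold or larger difference with an adjusted p under 0.1. Differences between responses were interaction contrasts of this model. Total counts of the 6 libraries ranged from 1098136 to 1983436, and counting intervals and floors of 3 counts cover counting error only. An exact permutation test of 3 against 3 cannot go below p = 0.1, so single values were not tested outside the model.

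Genes were named by a rule: the 8 largest rises and falls among called genes of at least 20 CPM with no overlap between groups, up to 5 called members of smallest p and up to 2 uncalled members of highest CPM per list, 11 set genes, and the 3 largest called differences per comparison. Not all of these are printed, some being left out as not reported here, and genes outside the rule are said to be chosen after their values were seen. The gene lists, the members and the comparisons were chosen with earlier results of these data known. Libraries were grouped by title, and those marked X were left out where 3 others remained. Alternatives were DESeq2 1.42.0, other scaling, filters and thresholds, a replicate block, sham 2X, mix 14 alone, mix as a covariate and each library left out in turn. Fits were tested on simulated counts. Python 3.11.15, pandas 2.3.3 and matplotlib 3.10.9 made tables and plots.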

Additional observations from a re-analysis of the deposited data

Results flagged for a closer look

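The response to PH at 52 h was tested for a difference between OF and each of the 3 other kinds of mice, and 153 genes differed from OM, 54 from YF and 155 from VOF by the interaction test. The 3 largest called differences of each comparison, among genes of at least 20 CPM in any of the 4 groups, are given here. Gm12669, annotated as a processed pseudogene, differed by 10.33 from OM, 9.91 from YF and 10.28 from VOF on the log2 scale, and these differences were called in 10, 3 and 12 of 12 fits with 1 library left out. It was at 99.9, 0 and 151 CPM in the OF PH libraries and at 0 in the OF sham libraries (at least 139-fold higher over the group), and the fitted differences are no bound because the sham group is at 0. Its call was lost in mix 14 alone (adjusted p = 0.145), and reads of pseudogenes may come from near-identical copies.

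Bard1, a partner of BRCA1 in DNA repair, differed by -6.65 from OM, where the 3 sham libraries were at 0. It was at 32.1, 47.9 and 33 CPM after PH and at 0, 5.29 and 4.77 CPM after sham surgery in OF, against 77.6, 76.6 and 78.5 CPM after PH in OM, and the difference was called in 5 of 12 fits with 1 library left out. Gm14150 differed by -5.65 from OM, with 459.7, 455 and 416 CPM after PH in OM against 3.17, 5.88 and 4.05 CPM in OF, and was called in 12 of 12 such fits.

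Against YF, Idi1, of isoprenoid synthesis, differed by 2.73 and was called in 6 of 12 fits, and Gm14480 differed by -6.88, at 14, 73.3 and 14.9 CPM after PH in YF, and was called in 4 of 12. Against VOF, the secreted glycoprotein gene Fstl1 differed by 3.84, at 15.5, 32.8 and 19.7 CPM after PH and 0, 2.65 and 1.59 CPM after sham surgery in OF, and was called in 6 of 12 fits. Gm7593 differed by 3.41 and was called in 12 of 12.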

How the results depend on the processing

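The number of genes called between PH and sham in OF was 998, and it stayed between 904 and 1042 with DESeq2 as the exception (868), under RLE scaling, the stricter filter, no filter, only the 2 groups, the replicate block and both uses of sham 2X. Without a filter the same 11048 genes were tested, so that fit equals the main one. An adjusted p under 0.05 with no fold minimum gave 1746 genes, of which 865 were lower. Mix 14 alone gave 514 (269 higher and 245 lower), of which 388 were called in the main comparison too, and mix as a covariate gave 535 (268 higher and 267 lower). In the covariate fit mixes 19, 21 and 22 each held 1 library. Its PH to sham difference therefore also came from mix 14, and it is no separate check. Leaving out 1 library gave 813 to 996 genes, 480 to 585 higher and 325 to 420 lower. For the differences, an adjusted p under 0.05 with no fold minimum gave 54 genes against OM, 16 against YF and 79 against VOF, the block gave 2 against YF and 30 against VOF, and leaving out 1 library gave 58 to 327, 2 to 163 and 57 to 252. Some of these fits also held fewer libraries, and the cause of the changes in number was not tested.

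Same-numbered PH and sham libraries did not deviate together (correlations of -0.154, 0.061 and -0.148 over 5299 genes). With 3 libraries in each group this check cannot exclude that the numbers pair the samples. The replicate block gave 904 genes.

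Of 124 called genes selected by the naming rule, 98 kept their call in mix 14 alone, 25 lost it and 1, Saa2, reversed (0.48, and 0.47 with mix as a covariate), and DESeq2 lost 6. Saa1 reversed likewise (0.45 and 0.44). The fit with mix as a covariate takes its PH to sham difference from mix 14, so it repeats the fit of mix 14 alone. Gm14480, not called in OF, reversed in mix 14 alone (3.40), with mix as a covariate (3.40), with 2X in place of sham 2 (3.16) and with 1 library left out ranged from -2.68 to 3.19 (without sham 2). Depth limits low genes such as Foxm1 and Chek1, whose values rest on few counts.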
